A study of Homo sapiens with 6 samples.

Results

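The regions described here are 20-nt bins at the distal end of 3′ UTRs that were recovered with the RNA-binding protein CELF1 (also named CUGBP1) from melanoma cells. A bin was a member when it was listed in all 3 peak lists and its centre lay in the last 200 nt of the 3′ UTR of the longest-CDS protein-coding transcript of a gene, for 3′ UTRs of 1000 to 5000 nt in the GRCh37 annotation. This gave 7164 bins of the 282942 bins that all 3 lists share. They fell in 1899 of the 8049 genes with such a 3′ UTR, of which 3659 had at least 1 bin anywhere in the 3′ UTR listed in all samples. The rule uses position and listing in every sample, so that the members are bins that passed peak calling against input in both cell lines.

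RNA immunoprecipitation and sequencing (RIP-seq) was done on the melanoma cell lines SK-Mel-103 (NRAS-mutated; IP replicate 1) and UACC-62 (BRAF-mutated; IP replicates 1 and 3), with the anti-CUGBP1 antibody on lysates of formaldehyde-fixed and sonicated cells. Each IP has 1 input sample of the same number, so that the series comprises 6 samples, and the input reads are read here from the covariate column of each list. No cells of either line were treated or depleted of CELF1, and no IP with a control antibody was analysed here. SK-Mel-103 is represented by 1 IP, and nothing in the labels says whether the UACC-62 replicates were separate cultures, so that their spread may be technical.

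CELF1 binds GU-rich elements (GREs) of the 3′ UTR and is known for roles in mRNA decay, translation and splicing. The distal end of the 3′ UTR is where the transcript is cleaved and polyadenylated. The hexamer AATAAA or its variant ATTAAA, written here in DNA letters, is read by the cleavage and polyadenylation machinery shortly upstream of the cleavage site, and the poly(A) tail added there is the substrate of the deadenylases that begin mRNA decay.

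The values are log2 IP over input: IP reads and input reads of a bin, or summed over the bins of a gene, each with 1 read added, were divided by the total of their column and the log2 of their ratio was taken. A value of 0 is thus an equal share of the IP and of the input reads in listed bins. Triplets of values are ordered with SK-Mel-103 first, then replicate 1 and replicate 3 of UACC-62. IP reads in listed bins numbered 10958459, 11333805 and 14436573, and those of the input 8453517, 10161917 and 8900292. Melanocytic markers (8 genes) summed to 900, 15728 and 11980 input reads in listed bins. Of these, PMEL and TYRP1 were at 0 in every sample and DCT, S100B and TYR in SK-Mel-103, whereas SOX10 had 864, 2115 and 1080 reads. Reads outside listed bins are not in the lists, so that a marker at 0 is not shown to be absent from the cells. In the input, the endothelial markers CDH5 and VWF were at 0 and leukocyte markers summed to at most 3 reads. PECAM1, also chosen as an endothelial marker, has no count here. In the fibroblast (10 to 239 input reads, LUM) and keratinocyte (120 to 251 input reads, KRT10) sets, 1 gene each gave the input signal. In the IP of UACC-62, VWF had 5 and the fibroblast marker DCN 4 reads in replicate 3. The leukocyte marker PTPRC had 25 and 8 IP reads in replicates 1 and 3. In these bulk lysates, fewer cells with a transcript and less of it per cell cannot be told apart.

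The bins below are shown first because the results turn on their genes. Each is the bin of its gene with the highest value in its lowest sample, from the GRCh37 genome on the strand of the transcript, 5′ to 3′. Membership goes by the bin centre, and the last bases of the VAT1 bin lie past the annotated transcript end at position 41166624. Capitals mark the poly(A) signal hexamers, the AU-rich pentamer ATTTA and short GU-rich stretches (TGTGT or TGTTT, and the overlapping form GTTTG) where the bin holds one. The first set holds the genes whose distal bins had the highest IP over input in all samples.
ZNF460 (chr19:57805401-57805420, plus strand, centre 27 nt from the end): tgcttcAATAAAcataggag
GINS1 (chr20:25429001-25429020, plus strand, centre 88 nt from the end): cagcatttcatagttttgat
POLR2M (chr15:58009641-58009660, plus strand, centre 105 nt from the end): acgtatggtaattctccctc
VAT1 (chr17:41166621-41166640, minus strand, centre 8 nt from the end): taaaaagccaaaccctgggt
FOXJ3 (chr1:42642281-42642300, minus strand, centre 82 nt from the end): attccaagtgtcattaggat
OSBP (chr11:59342001-59342020, minus strand, centre 141 nt from the end): ttcccgctaatggaagaagt
RFK (chr9:79000481-79000500, minus strand, centre 50 nt from the end): taccattttgattagtctga
RRM2 (chr2:10271501-10271520, plus strand, centre 35 nt from the end): cacaagtcttaagtgattaa
The second set holds bins of genes with the lowest values, where even this bin was below 0 in at least 2 of the 3 samples.
FAM136A (chr2:70523261-70523280, minus strand, centre 164 nt from the end): cagtgttcctgccccagcat
CAP1 (chr1:40538161-40538180, plus strand, centre 151 nt from the end): tttttccctctaggacaaac
CCNC (chr6:99990321-99990340, minus strand, centre 69 nt from the end): caattgtggatgatggctta
RHOA (chr3:49396601-49396620, minus strand, centre 40 nt from the end): ttaatttttccaactactaa
GLO1 (chr6:38643701-38643720, minus strand, centre 11 nt from the end): gactaTGTTTaatttgtaaa
The third set holds bins of cell cycle, survival, RNA-binding and cleavage factor genes and of PABIR2, which differed between the lines, all described further on.
CCND1 (chr11:69469201-69469220, plus strand, centre 32 nt from the end): agacaaacatgaaagtctag
E2F3 (chr6:20493841-20493860, plus strand, centre 95 nt from the end): acagggtgacctgttctcta
CDKN1A (chr6:36654961-36654980, plus strand, centre 144 nt from the end): cccaTGTGTcctggttcccg
BIRC5 (chr17:76221661-76221680, plus strand, centre 47 nt from the end): gccatgtggaaagagtaact
DEK (chr6:18224601-18224620, minus strand, centre 35 nt from the end): atctttgcatcatagaacag
MCL1 (chr1:150547041-150547060, minus strand, centre 18 nt from the end): gaaaaaaaAATAAAtctttt
HNRNPK (chr9:86583101-86583120, minus strand, centre 114 nt from the end): ccaAATAAATAAAacaccca
MBNL1 (chr3:152183461-152183480, plus strand, centre 98 nt from the end): ttgggctgcaattTGTTTta
CSTF1 (chr20:54981261-54981280, plus strand, centre 148 nt from the end): aatattatatggacttagta
PABIR2 (chrX:133903601-133903620, minus strand, centre 16 nt from the end): agTGTGTatacatgcataaa
The last set holds the bins that had no input read in any sample and the most IP reads in their lowest sample.
MIGA1 (chr1:78345181-78345200, plus strand, centre 35 nt from the end): aacatggatgtattactatt
SMIM15 (chr5:60453621-60453640, minus strand, centre 101 nt from the end): ccattctaaagctggtcttg
EIF1AD (chr11:65764181-65764200, minus strand, centre 176 nt from the end): aggcgtgaaaacctgtactg
IER2 (chr19:13265641-13265660, plus strand, centre 75 nt from the end): cggtggattctttttaactc
STAMBP (chr2:74094101-74094120, plus strand, centre 169 nt from the end): tctatctcatcactgttact

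Distal bins held more IP than input reads in each sample. Summed over the members, 229632, 226157 and 300326 IP reads stood against 108582, 137265 and 124851 input reads, which gave log2 values of 0.71 for SK-Mel-103 and 0.57 ± 0.004 (SD, n = 2) for UACC-62. The interior of the same class of 3′ UTRs (82258 bins with centres over 200 nt from both ends) gave 0.45, 0.45 and 0.53, and the first 200 nt after the stop codon (9057 bins) gave -0.41, -0.80 and -0.53. The 3 samples of the distal bins lay above all samples of the stop-side bins, and each sample lay above its own interior value, with the smallest gap in UACC-62 replicate 3. These values are conditional on a bin having passed peak calling, since reads outside listed bins are not in the lists.

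Per bin, log2 IP over input was above 0 in all 3 samples in 3604 members (50.3%, 95% Wilson interval 49.1 to 51.5%), beside 37.4 percent of all bins listed in all samples, 45.8% of the interior bins and 23.6% of the stop-side bins. It was above 1 in every sample in 1775 members (24.8%), against 18.1 percent of all bins. It was below 0 in every sample in 1423 members (19.9%), against 33.3 percent. More than 30 IP reads in every sample were found in 1128 members (15.7%), against 10.9 percent. The intervals cover counting error only, and bins of a transcript are not independent. Median IP reads per member were 16, 15 and 20, and median input reads 7, 10 and 9, so that a single bin is a thin measurement and genes are described by reads summed over their bins.

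A gene held 3 members at the median of the 10 grid bins of its window. Of the 1899 genes, 532 had 1 member, 676 had at least 5 and 138 had at least 9. In the 676 genes with at least 5 members, the SD of the bins within a gene was 0.89, 0.72 and 0.79 at the median, and the SD of the gene means was 1.14, 1.44 and 1.23, so that genes differed more than the bins inside them. An exon of another gene on either strand overlapped 522 members (7.29%), and 20 members lay in the window of 2 genes and were counted once among the 7164.

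By distance, the share of grid bins that all samples list was lowest at the very end of the transcript. Among the 3659 genes with a listed 3′ UTR bin, 14.7% of the bins with centres in the last 40 nt were listed in all samples, 22.9% at 41 to 80 nt and 20.2% at 81 to 200 nt. It was 20.7% at 201 to 400 nt and 22.4% beyond 1000 nt. In the last 40 nt, the listed bins had a log2 value of 0.80 for SK-Mel-103 and 0.55 ± 0.02 (SD, n = 2) for UACC-62. At 41 to 80 nt these were 0.68 and 0.51 ± 0.01, and at 81 to 200 nt 0.69 and 0.59 ± 0.01, so that the last 40 nt had the highest of the 3 values in SK-Mel-103 and not in UACC-62. Over all 8049 genes, the listed share of the last 200 nt was 8.93% against 10.7% of the interior, a ratio of 0.83, and per sample the ratio was 0.83, 0.81 and 0.81. The ratio was thus below 1 in each sample, which is the opposite order to that of IP over input. The smallest p that 3 samples allow is 0.25, so that no test of it could pass 0.05.

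Farther up the 3′ UTR, values did not follow one direction with distance. Beyond 1000 nt from the end they were 0.47, 0.46 and 0.54. SK-Mel-103 had log2 values of 0.35 at 601 to 1000 nt, 0.40 at 401 to 600 nt and 0.52 at 201 to 400 nt from the end, all below the distal value. UACC-62 had 0.43 ± 0.06 at 601 to 1000 nt, 0.46 ± 0.07 at 401 to 600 nt and 0.56 ± 0.02 (SD, n = 2) at 201 to 400 nt. The zone next to the window therefore had nearly the value of the window in UACC-62 and a lower one in SK-Mel-103. Just inside the limit (centres at 191 to 200 nt, 372 bins) the values were 0.50, 0.40 and 0.46, and just outside it (201 to 210 nt, 374 bins) 0.77, 0.67 and 0.63. In each sample the bins just outside the limit thus had the higher value, opposite in direction to the difference between the window and the interior.

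**Figure D1:**
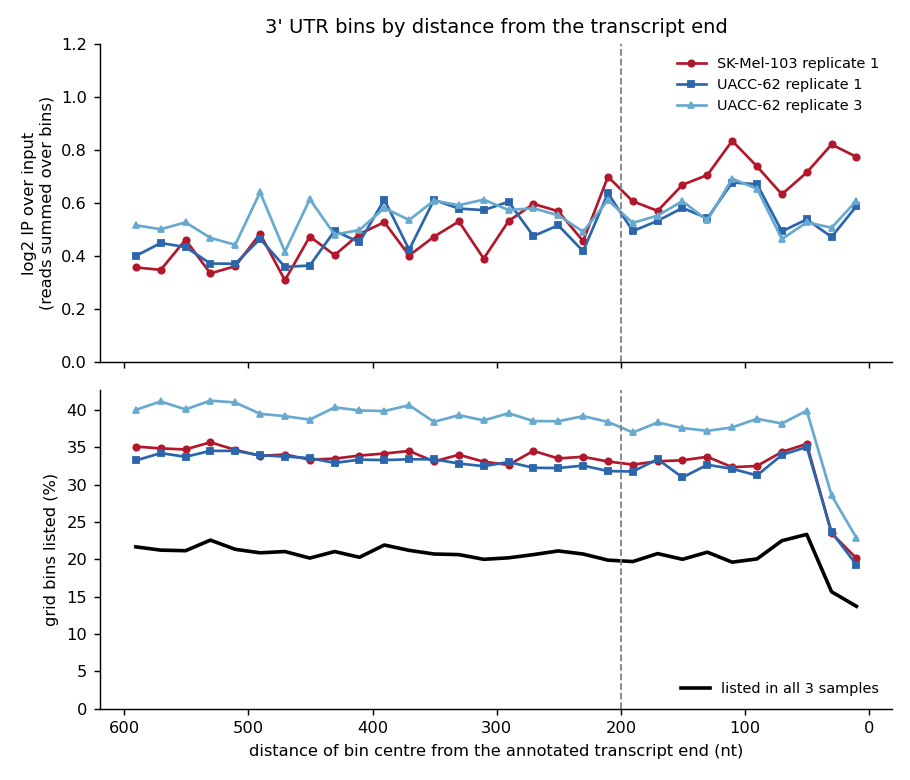
The upper panel plots log2 IP over input of bins listed in all samples, reads summed, against the distance of the bin centre from the annotated transcript end (nt), 1 line per sample, and the lower panel plots the share of grid bins listed in each sample and in all 3. The dashed line is at 200 nt. The listed share falls in the last 40 nt, to 13.7% of bins in the last 20 nt. In the upper panel the last 40 nt are at 0.80 in SK-Mel-103 and at 0.53 and 0.56 in the UACC-62 replicates.

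Relative to the poly(A) signal, the listed share was highest 21 to 40 nt upstream of it and lower from 20 nt upstream to the end. The hexamer AATAAA or ATTAAA lay in the last 50 nt in 1633 of the 1899 genes with a member (86.0%), in 79.5% of all 8049 genes and in 77.4% of the genes without a member. AATAAA was present in 71.7% and ATTAAA in 19.7% of the genes with a member, and the last hexamer began 24 nt before the annotated end at the median. Bins centred 21 to 40 nt upstream of the first base of that hexamer were listed in all samples in 25.4% of cases, against 21.5 to 21.9% of those more than 60 nt upstream. In the 20 nt directly upstream the share was 19.5%. Over the 20 nt from its first base it was 15.0%, and 12.1% over the following 20 nt, with 702 grid bins there. Log2 IP over input of the listed bins was 0.92, 0.61 and 0.61 at 1 to 20 nt upstream and 0.74, 0.51 and 0.59 over the hexamer. Genes without a hexamer had fewer listed distal bins, 13.6% against 21.0%, but their listed bins had higher values, 0.86, 0.89 and 0.82 against 0.68, 0.51 and 0.53.

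**Figure D2:**
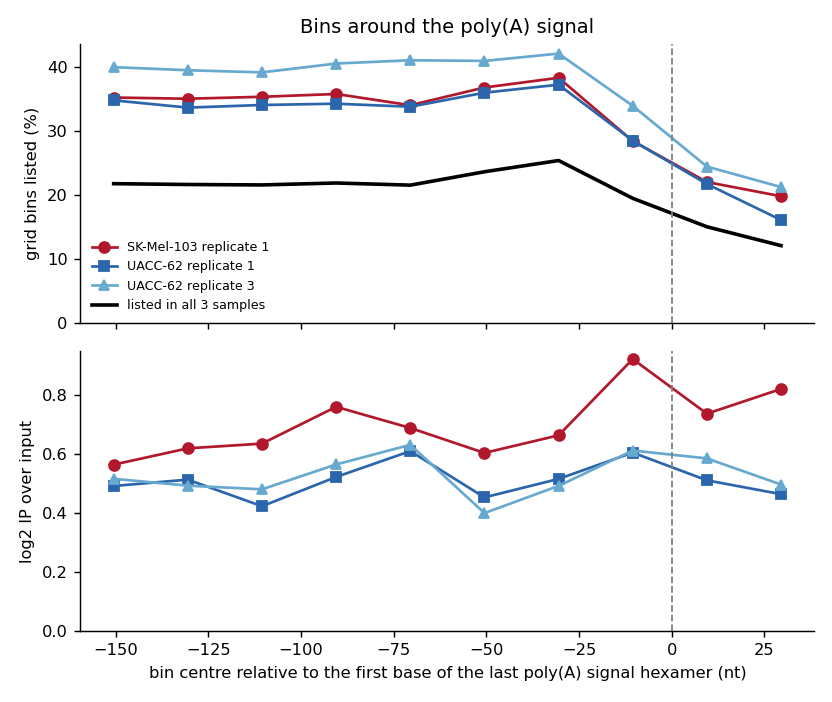
Bins of the last 200 nt in genes with a poly(A) signal hexamer in the last 50 nt, by the position of the bin centre relative to the first base of the last hexamer (nt, negative is upstream). The upper panel gives the percentage of grid bins listed and the lower panel log2 IP over input, per sample. The listed share peaks at 25.4% at 21 to 40 nt upstream of the hexamer and is 12.1% at the downstream end.

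Within the same gene, distal bins were above interior bins by a small amount in each sample. In the 1041 genes with at least 3 bins of each kind, the median difference in log2 IP over input was 0.33, 0.18 and 0.13. The mean was 0.21 ± 0.10 (SD, n = 3). This SD pools both cell lines, and the test that follows takes the UACC-62 replicates as independent. The exact permutation test of the signs over the 3 samples gave p = 0.25 (2-sided), the smallest value that 3 samples allow, so that this design cannot pass 0.05. The 10th to 90th percentile over genes ran from -0.49 to 1.28 in SK-Mel-103, and 427 genes were higher distally in all samples (41 percent of the genes compared) and 162 lower in all samples (15.6 percent). Without SK-Mel-103 the mean difference was 0.14. In the 514 genes with no other annotated end upstream of the distal window, the differences were 0.35, 0.16 and 0.13. When the interior was limited to 201 to 400 nt from the end, the differences fell to 0.16, 0.07 and 0.03 (842 genes).

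Against the first 200 nt after the stop codon, the difference within genes was larger. It was 0.76, 0.83 and 0.60 in the 682 genes compared, with a mean of 0.73 ± 0.12 (SD, n = 3, both cell lines pooled). The exact permutation test of the signs again gave its smallest p of 0.25. Distal bins were higher in all samples in 456 genes (66.9 percent) and lower in all samples in 39 genes (5.72 percent). The UACC-62 replicates differed from each other by more in this comparison, with 0.72 ± 0.16 (SD, n = 2), than in the one with the interior, with 0.15 ± 0.04.

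**Figure D3:**
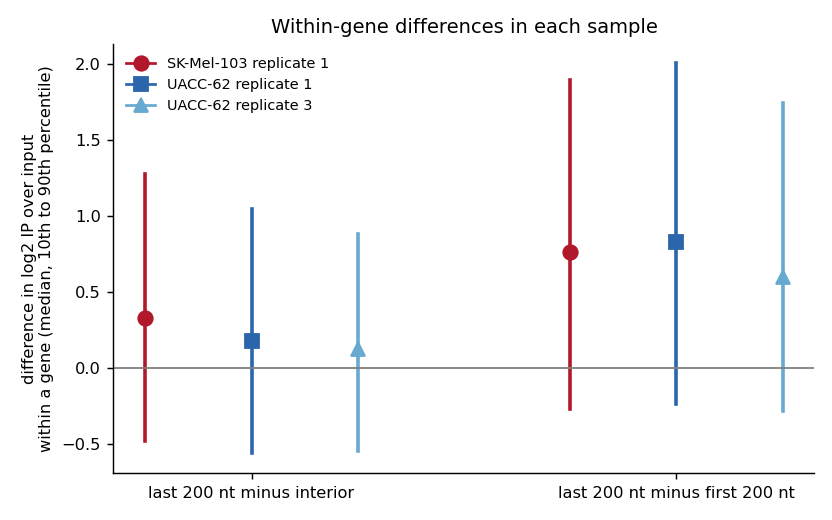
Within-gene differences in log2 IP over input per sample: distal minus interior bins (1041 genes, left) and distal minus stop-side bins (682 genes, right). Symbols are medians over genes and lines run from the 10th to the 90th percentile. Medians are above 0 in all samples on both sides, at 0.13 to 0.33 on the left and 0.60 to 0.83 on the right.

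Longer 3′ UTRs had higher distal values. Distal log2 IP over input was 0.36, 0.31 and 0.33 in 3′ UTRs of 1000 to 1499 nt, 0.61, 0.49 and 0.47 at 1500 to 1999 nt, 0.89, 0.66 and 0.69 at 2000 to 2999 nt and 1.14, 0.90 and 0.88 at 3000 to 5000 nt. The order was the same in each sample. The within-gene difference to the interior moved less, from 0.25, 0.13 and 0.08 in the shortest class to 0.39, 0.24 and 0.17 in the longest.

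Distal windows were poor in G and C, with a median GC content of 33.3% in the 60 nt centred on the bin, beside 36.7% for interior and 38.3% for stop-side bins. The windows were cut from the genome, so that those of bins nearest the end also hold bases past the annotated transcript end. Base composition moved with position, so values were also set side by side within GC classes. Below 30% GC, the median bin had 0.95, 0.65 and 0.54 distally and 0.63, 0.40 and 0.44 in the interior. At 50% GC and above the order was turned, with 0.47, 0.43 and 0.61 distally against 0.57, 0.58 and 0.72. When only bins under 45% GC were used, an alternative chosen after the values were seen, the within-gene difference to the interior was 0.34, 0.19 and 0.15.

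Distal windows that held a GRE had higher IP over input than those without one in each sample. A GRE was an 11-nt stretch on the transcript strand within 2 mismatches of alternating T and G, or of a run of T with a regularly spaced G. It was found in the 60-nt window of 568 members (7.93%), beside 6.07% of interior, 5.55% of stop-side and 6.16% of all such 3′ UTR bins. The distal share, as for every motif searched, also counts matches past the annotated end in windows that run beyond it. How many there were was not counted. Median log2 IP over input was 1.30, 1.11 and 1.04 with a GRE and 0.78, 0.52 and 0.57 without, a difference of 0.52 for SK-Mel-103 and 0.53 ± 0.08 (SD, n = 2) for UACC-62. The same contrast was present in the interior, at 0.98, 0.92 and 0.89 with and 0.52, 0.33 and 0.49 without. The hexamer TGTGTG, which overlaps the first GRE form, was in 4.91% of the members and 3.85% of all 3′ UTR bins, with a difference of 0.42 for SK-Mel-103 and 0.51 ± 0.01 for UACC-62. TGTTTG was in 5.92% of the members and 4.62% of all, with 0.42 and 0.29 ± 0.03.

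For the other 3′ UTR elements searched, the differences were closer to 0 in SK-Mel-103 and in the UACC-62 mean. AATAAA was in 19.8% of the member windows and 5.83% of all 3′ UTR windows, and members with it differed from those without by 0.03 for SK-Mel-103 and -0.14 ± 0.02 for UACC-62. The AU-rich pentamer ATTTA, bound by decay factors of the ZFP36 family, was in 14.1% of the members and 13.5% of all, with differences of -0.02 and -0.12 ± 0.05. TGTANATA, the element of Pumilio proteins, was in 2.81% of the members (201 bins) and 1.49% of all, with 0.00 for SK-Mel-103 and 0.19 ± 0.10 for UACC-62. ATTAAA was in 7.34% of the members and 4.24% of all, with 0.05 and -0.10 ± 0.08. A match is a description of the letters in the window and does not show a bound site.

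**Figure D4:**
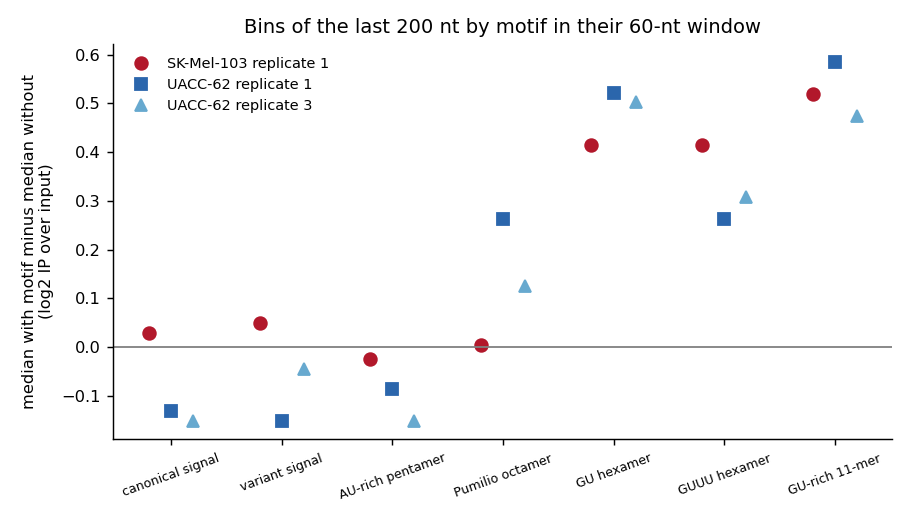
Difference in median log2 IP over input between distal bins with and without each motif in their 60-nt window, 1 symbol per sample. The order from the left is the canonical and the variant poly(A) signal, the AU-rich pentamer, the Pumilio element and the GU-rich motifs. The 3 GU-rich motifs on the right lie above 0 in every sample, from 0.26 to 0.58, the poly(A) signals lie on both sides of 0, the AU-rich pentamer below it in each sample, and the Pumilio element runs from 0.00 to 0.26.

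Genes were ranked among the 342 with at least 5 members and at least 50 IP and 50 input reads over them in every sample. Across these genes the UACC-62 replicates differed by 0.37 at the median (absolute value), and SK-Mel-103 differed from the mean of both by 0.36. A difference from a mean of 2 is expected to be smaller than one between single samples, so that these values are not on one footing. Pearson's r over the 342 genes, which share libraries within each sample and are not independent replicates, was 0.92 to 0.93 for the 3 pairs of samples. SK-Mel-103 was higher by 0.26 at the median.

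The 8 highest genes had distal values above 2.4 in every sample and have varied roles. RRM2, the small subunit of ribonucleotide reductase, had 3792, 3540 and 2195 IP reads on 274, 241 and 244 input reads over 9 bins. Its values of 3.41, 3.71 and 2.47 put UACC-62 replicate 3 below the others. GINS1, a subunit of the replicative helicase complex, had 952, 799 and 1098 IP reads on 80, 91 and 75 input reads, with 3.18, 2.96 and 3.16, and its samples hardly differed. ZNF460, a zinc finger gene, had 1166, 1911 and 2166 IP reads on 105, 110 and 147 input reads (3.09, 3.95 and 3.17), but all 10 of its bins overlap an antisense exon. VAT1, a membrane protein of vesicles, had 468, 5107 and 5491 IP reads on 53, 421 and 381 input reads. Its level thus differed strongly between the lines in IP and input alike, and the ratio did not, at 2.74, 3.44 and 3.15. OSBP, a sterol-binding transfer protein, had 2.66, 2.85 and 2.87, and RFK, riboflavin kinase, 2.76, 2.58 and 2.52. The forkhead factor FOXJ3 had 3.04, 3.70 and 2.67, and POLR2M, a subunit associated with RNA polymerase II, 2.76, 3.32 and 3.11.

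The 8 lowest genes had distal values below -1.5 in every sample, and their roles varied as well. RHOA, a small GTPase of the cytoskeleton, had 546, 197 and 335 IP reads on 1218, 789 and 725 input reads over 9 bins (-1.53, -2.15 and -1.81). CAP1, which regulates actin turnover, had 215, 164 and 278 IP reads on 588, 945 and 798 input reads (-1.82, -2.68 and -2.22). FAM136A, a mitochondrial protein, had -1.97, -2.09 and -2.31, and GOT2, the mitochondrial aspartate aminotransferase, -1.78, -2.35 and -1.96. CCNC, cyclin C of the Mediator kinase module, had -1.84, -2.38 and -1.69. GLO1, which detoxifies methylglyoxal, had -1.64, -2.53 and -1.51, with the UACC-62 replicates further apart than in the other low genes. LRRC59, a protein of the endoplasmic reticulum, had -1.62, -2.14 and -1.83 with all 8 bins over antisense exons of EME1. The unnamed gene ENSG00000285043 (-1.53, -1.74 and -1.79) has all 9 bins in exons of ALDOA, the glycolytic aldolase, and its reads cannot be told from that gene.

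These low genes were low across the 3′ UTR and not at the end alone. Their distal minus interior difference was between -0.15 and 0.48 in SK-Mel-103 and between -0.15 and 0.28 for the UACC-62 mean. The difference was also uneven among the highest genes, at 1.34, 0.91 and 0.22 for RRM2 and -0.08, -0.06 and -0.61 for FOXJ3.

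**Figure D5:**
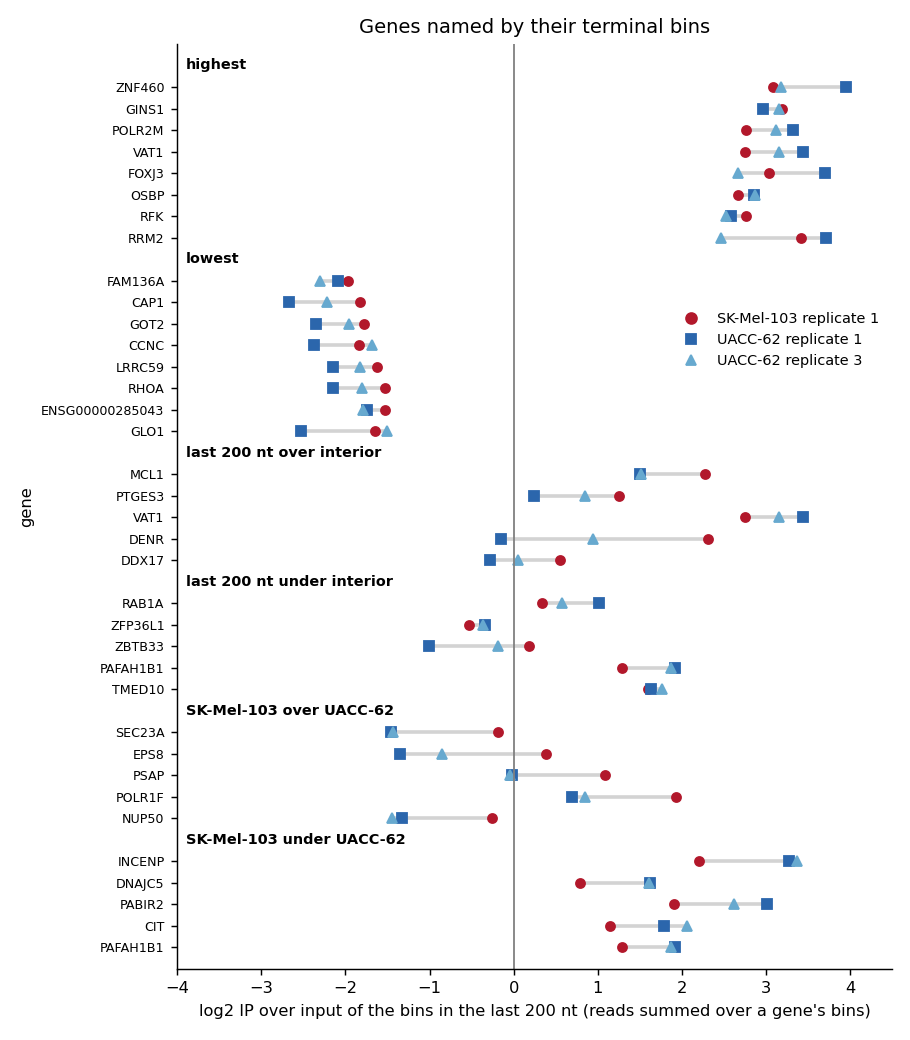
Log2 IP over input of the distal bins, reads summed over the bins of a gene, for the genes chosen by level, by difference to the interior and by difference between lines, with 1 symbol per sample and a grey line over their range. The 8 highest genes have all samples above 2.4 and the 8 lowest all samples below -1.5. VAT1 and PAFAH1B1 appear in more than 1 group.

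A distal excess over the rest of the 3′ UTR was largest in MCL1 among the 339 ranked genes with at least 5 interior bins, by its lowest sample. MCL1, an anti-apoptotic BCL2-family protein with a short-lived mRNA, had 1162, 312 and 433 IP reads on 184, 98 and 93 input reads over 10 bins (2.28, 1.50 and 1.51). Its distal minus interior difference was 2.10 for SK-Mel-103 and 1.88 ± 0.32 (SD, n = 2) for UACC-62. The value was highest at the very end. The bin centred 18 nt from it, which holds AATAAA, had 182, 35 and 87 IP reads on 11, 3 and 3 input reads (3.56, 3.01 and 3.76), whereas the bin at 198 nt had 1.02, -0.46 and -0.32.

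PTGES3, the p23 co-chaperone of HSP90, had differences of 1.52, 1.44 and 1.55, VAT1 1.87, 1.81 and 1.13, DENR, a factor of translation reinitiation, 2.19, 1.16 and 1.11, and the RNA helicase DDX17 1.56, 1.49 and 0.95. All samples of these genes were positive, while the distal level itself was below 0 in UACC-62 replicate 1 for DENR (-0.15) and DDX17 (-0.28). CSTF1, a subunit of the cleavage stimulation factor, had too few input reads for the ranking (15, 14 and 9) and showed 1.76, 1.71 and 1.75.

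In other genes the end was the poorer part. RAB1A, a GTPase of traffic from the endoplasmic reticulum, had distal minus interior differences of -1.54, -1.02 and -0.81, with 4 of its 5 bins over an antisense exon of CEP68. The transcription factor ZBTB33 had -0.63, -1.43 and -0.54, and TMED10, a cargo receptor of early secretion, -0.54, -1.0 and -0.66. PAFAH1B1, a regulator of dynein, had -0.77, -0.54 and -0.74 although its distal level was 1.28, 1.92 and 1.87. ZFP36L1, itself an AU-rich element binding decay factor, had -0.80, -0.54 and -0.59 at a distal level of -0.53, -0.34 and -0.36.

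Few genes stood apart between the cell lines. Of the 211 genes whose UACC-62 replicates were within 0.5 of each other, SK-Mel-103 lay outside their range by more than 1 in 7 (3.32 percent), 6 above and 1 below. The COPII coat subunit SEC23A had 135, 128 and 169 IP reads on 118, 317 and 282 input reads (-0.18, -1.46 and -1.43). EPS8, a signalling adaptor of the actin cytoskeleton, had 104, 127 and 194 IP reads on 61, 293 and 217 input reads (0.39, -1.36 and -0.86). PSAP, the precursor of the lysosomal saposins, had 170, 216 and 186 IP reads on 61, 197 and 118 input reads (1.09, -0.03 and -0.05). In these genes the input reads were fewer in SK-Mel-103 and the IP reads less so. POLR1F, a subunit of RNA polymerase I, had 1.93, 0.69 and 0.84, and the nucleoporin NUP50 -0.26, -1.32 and -1.44. In the other direction, INCENP, a scaffold of the chromosomal passenger complex, had 663, 814 and 916 IP reads on 110, 75 and 54 input reads (2.21, 3.27 and 3.36). Below the UACC-62 range by less than 1 were the synaptic vesicle chaperone DNAJC5 (0.79, 1.62 and 1.60), PABIR2 (1.91, 3.01 and 2.62) and CIT, a kinase of cytokinesis (1.14, 1.79 and 2.06). These genes were selected for the difference of both UACC-62 replicates from 1 SK-Mel-103 library, and no test was made of them.

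Of 41 genes of the cell cycle and DNA replication, 17 had a 3′ UTR in the length range, 10 had a member and 7 had at least 3. Over all 1061 genes with at least 3 members, 55.8 percent were above 0 in every sample and 24.5 percent below, with median gene values of 0.80, 0.43 and 0.62, against which the lists are set. In the list, CCND1, CDC25B, CDKN1A, E2F3 and BIRC5 (5 of 7) were above 0 in all samples and DEK and CCNA2 below, with list medians of 1.21, 0.84 and 2.39. Such counts are too small to set the list apart from all genes.

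CCND1, cyclin D1 of the G1 phase, had 2455, 886 and 866 IP reads on 400, 100 and 48 input reads over 9 bins (2.24, 2.98 and 3.45). It thus had more reads in SK-Mel-103 but a lower ratio there than in either UACC-62 replicate. Its bin centred 32 nt from the end had 683, 194 and 264 IP reads on 43, 10 and 6 input reads, next to 508, 198 and 146 IP reads in the bin at 52 nt, and 7 of its 9 bins overlap an antisense exon of LTO1. E2F3, a transcription factor of S-phase entry, had 2.80, 3.16 and 2.39, and CDC25B, a phosphatase that activates mitotic cyclin-dependent kinase, 2.0, 2.27 and 2.72. CDKN1A, the inhibitor p21, was lower with 0.91, 0.57 and 0.73.

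BIRC5 (survivin), an inhibitor of apoptosis, had 3 members with 35, 25 and 45 IP reads on 11, 12 and 4 input reads, so that its values of 1.21, 0.84 and 2.50 rest on few reads. One of them, centred 47 nt from the end, had 17, 5 and 24 IP reads and no input read in any sample. DEK, a chromatin-associated oncoprotein, had 398, 124 and 264 IP reads on 367, 244 and 228 input reads over 6 distal bins (-0.26, -1.13 and -0.49). All samples were below 0, and its distal minus interior difference was -0.34, -0.25 and -0.25. Within the window, the DEK bin centred 75 nt from the end was low in every sample (-1.61, -1.55 and -1.36), whereas that at 55 nt ranged over both sides of 0 (0.97, -1.16 and 0.30). CELF1 itself gave no member, since the transcript that the rule picks has a 3′ UTR outside the length range.

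Of 41 RNA-binding proteins of mRNA fate, 23 were in the length range and 12 had at least 3 members, 6 above 0 in all samples (HNRNPK, MBNL1, MSI2, CPEB2, HNRNPD and FMR1) and 5 below (ZFP36L1, PTBP1, MBNL2, ZFP36L2 and PUM2). The list medians were 0.26, 0.62 and 0.13. HNRNPK, an abundant nuclear RNA-binding protein, had 1480, 2425 and 2230 IP reads on 419, 580 and 484 input reads (1.44, 1.90 and 1.50). Its bin at 114 nt from the end, which holds overlapping AATAAA hexamers, had 553, 886 and 887 IP reads, the most of its window. MBNL1, a splicing factor that acts on many of the same transcripts as CELF1, had 1.53, 1.50 and 1.39, and MSI2, a translation regulator, 0.77, 0.75 and 1.02.

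Of 34 cleavage, polyadenylation and deadenylation factors, 14 were in the length range and 5 had at least 3 members, 3 above 0 in all samples and 1 (CNOT8) below, with list medians of 1.89, 0.63 and 1.16. PAPOLA, the poly(A) polymerase, had 1006, 598 and 1225 IP reads on 209, 347 and 337 input reads (1.89, 0.63 and 1.16), with SK-Mel-103 the highest. CSTF1 had 2.84, 2.97 and 2.44, and CNOT6, a deadenylase of the CCR4-NOT complex, 2.45, 3.84 and 3.66 on no more than 15 input reads in any sample. NUDT21, a subunit of cleavage factor I, had 0.38, -0.13 and 0.20 and lay on both sides of 0.

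Of 31 short-lived mRNAs with AU-rich elements, 5 of 17 in the length range had at least 3 members. MCL1, IER2 and DUSP5 were above 0 in all samples and HIF1A and DUSP4 below, with list medians of 1.44, 1.50 and 1.42. IER2, an immediate early gene, had 272, 283 and 221 IP reads on 41, 24 and 16 input reads (2.33, 3.35 and 3.01). The phosphatase DUSP5 had 1.44, 1.99 and 1.42, and HIF1A, the hypoxia-inducible factor, -0.96, -1.54 and -1.32. Of 20 genes of the melanocyte lineage and melanoma state, NRAS alone had at least 3 members (-0.98, -1.28 and -0.62). SOX10, the neural crest factor, had 2 members with 19, 14 and 9 IP reads on 25, 54 and 31 input reads, and TFAP2A had 1 member with 9, 7 and 4 IP reads.

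No input read in any sample was found for 40 members in 36 genes (0.558%, against 0.845 percent of all bins listed in all samples). The share was thus no higher than in the lists at large. The bin of MIGA1, a mitochondrial outer membrane protein, had 48, 26 and 45 IP reads, and 26 is the highest lowest-sample count among the 40. The bins of SMIM15 (17, 24 and 23), EIF1AD (17, 14 and 28), IER2 (18, 14 and 14) and STAMBP, a deubiquitinase of endosomes (13, 27 and 25), followed. Bins without input carry the constant 0.01 as covariate in the lists, which equals 171, 388 and 326 input reads on the scale of that column, so that such bins were not called as bins of low input.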

How the data were processed

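CELF1 RIP-seq libraries of SK-Mel-103 (IP replicate 1) and UACC-62 (IP replicates 1 and 3), each with its own input, were used. Per the labels, reads were aligned with TopHat2 2.0.4 and Bowtie 0.12.7 to GRCh37 and handled with SAMtools 0.1.16. The methods describe 40-nt reads and first-strand libraries. The authors called bins of 20 nt with Piranha, the input being the covariate. For every passing bin the authors deposited the count of IP reads, which is at least 4. The p-value deposited by the authors is below 0.05 in every bin. The ratio deposited by the authors in the last column is the input covariate, from which whole input reads were recovered as multiples of its smallest step, with no value further than 0.0188 from a whole number. The labels call the IP RNA poly A+, whereas the protocol describes depletion of ribosomal RNA.

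The transcript strand was the reverse of the listed one. Coordinates are GRCh37, and all bins fitted the 24 chromosomes compared. Genes and exons came from GENCODE version 44 mapped to GRCh37, protein-coding transcripts of protein-coding genes only for the 3′ UTRs, and sequences from the genome of that build. Terminal (distal), interior and stop-side bins were compared within genes as the difference in log2 IP over input (pseudocount 1 read, at least 3 bins of each kind). The exact permutation test used the signs of the per-sample medians, because bins of a library are no replicates. No model across bins was fitted, since only passing bins are listed. Each IP was paired with the input of its own number, as the authors did. Over 342 genes, the replicate differences of IP and of input in UACC-62 correlated at r = 0.34.

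Named genes had at least 5 members and 50 IP and 50 input reads in every sample. They were the 8 highest and the 8 lowest by the sample nearest to 0, the 5 with the largest difference to the interior in each direction, the 5 with the largest difference between lines in each direction (UACC-62 replicates within 0.5), and, whatever their reads, the 4 most-read genes of each list, with DEK, BIRC5 and CELF1. The members and lists were chosen with earlier results of these data known. Alternatives comprised pseudocount, read and p-value filters, window, totals, input pairing and leaving out replicates. Steps were tested on simulated data. Python 3.11.15, pandas 2.3.3, numpy 2.4.6, scipy 1.17.1 and bedtools 2.31.1 were used.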

Additional observations from a re-analysis of the deposited data

Results flagged for a closer look

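Among the named genes with at least 5 distal bins, some had SK-Mel-103 on one side of 0 and both UACC-62 replicates on the other, and the difference between the lines was not tested in any of them. In log2 IP over input of the distal bins, EPS8 had 0.39 against -1.36 and -0.86 (SK-Mel-103 minus the UACC-62 mean 1.49), PSAP 1.09 against -0.03 and -0.05 (1.12) and ZBTB33 0.18 against -1.01 and -0.19 (0.78). In the distal minus interior difference, SEC23A had 0.12 against -0.39 and -0.26 (0.44) and GINS1 0.07 against -0.37 and -0.31 (0.41). EPS8, PSAP and SEC23A had been selected for their difference between the lines.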

How the results depend on the processing

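The distal minus interior difference kept its direction under all 17 alternatives, from 0.09 (interior limited to the 200 nt next to the distal window, added after the data were seen, as was the limit on GC content) to 0.28 (last 100 nt), and leaving out a replicate gave 0.14 to 0.24. The distal minus stop-side difference kept its direction under all 16, from 0.57 (the bins listed in each sample) to 1.18 (reads summed over all genes), and leaving out a replicate gave 0.62 to 0.77. With no replicate block, each UACC-62 IP was set against the input of both replicates instead of its paired input. These differences were then 0.22 and 0.74, and the UACC-62 value of the members was 0.57. Above 0 in all samples were 3804 members (53.1%) instead of 3604 (50.3%).

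The number of members was 1128 with more than 30 IP reads in every sample and 3474 in the last 100 nt. It was 271 with the listed strand taken literally. Those above 0 in all samples were then 904 (80.1%), 1739 (50.1%) and 100 (36.9%). The main setting had 50.3%, beside 37.4 percent of all bins listed in all samples. Leaving out a replicate gave 8025 to 9616 members and 4462 to 5133 above 0 (53.4 to 55.6%). The share of all bins was not computed under these alternatives, so that these counts are not set against the lists at large. The ratio of listed shares was 0.83. It became 0.81 for bins listed in at least 1 sample, 0.97 with more than 30 IP reads and 0.81 in the last 100 nt. It was 0.88 without the last 40 nt and 0.90 in genes with a 3′ UTR bin in all samples. In genes with a poly(A) signal it was 0.87, and without a replicate 0.81 to 0.83. The UACC-62 value of the members was 0.67 with totals over the bins listed in all samples, 1.10 with more than 30 IP reads and 0.56 to 0.57 without a replicate. The 53 named genes kept their side of 0 or stayed within the spread of the samples in all 318 alternative values. Those that left out a replicate could not have come out otherwise, being means over part of the same values. They are therefore no check. The cause of these shifts was not tested. Depth limits single bins, whose median input was 7 to 10 reads.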
